A study of Homo sapiens with 18 samples.

Results

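Matricellular proteins are secreted into the extracellular matrix, where they mainly modulate how cells attach, move and receive growth factor signals rather than bear load. The set described here holds 9 genes, most of them of this kind. These are the fasciclin-domain proteins POSTN and TGFBI, the tenascins TNC and TNXB, and the thrombospondins THBS1, THBS2 and THBS3. The collagen-binding protein SPARC and the adhesive glycoprotein FN1, through which many of the others are anchored, complete the set. FN1 itself forms provisional matrix and was kept in the set with the matricellular genes. The 9 genes were taken as the rows of both count tables whose gene symbol is one of these names, out of 61544 genes listed in each table. The set was chosen by family, with the fold changes of both guides against sgCtrl already known, so values that involve the guides describe the genes and carry no test. Earlier results of these data were known as well. The overexpression p-values, adjusted over all genes tested, are therefore not those of a set chosen blind.

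Expression was measured by sequencing poly(A) RNA from BJ cells, a human skin fibroblast line, in 18 libraries that form 6 groups of 3. For knockdown, the long noncoding RNA PURPL was targeted by CRISPR interference, a method that represses a gene at its own locus, with sgRNA-PURPL#1 or with sgRNA-PURPL#2, and sgCtrl was the reference guide. For overexpression, PURPL was raised in PURPL#1-OE and in PURPL#2-OE, and the reference was a separate control, Ctrl. The labels give no vector, promoter, repressor, clone status or time for any group, and do not state whether the replicates came from separate cultures. P-values thus reflect the spread among these libraries only, and that spread may be technical.

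In dermal fibroblasts these proteins are known as products of matrix remodelling and wound repair. Many of them respond to TGF-beta, bind integrins or syndecans on the cell surface, and meet collagen fibrils outside the cell. THBS1 also binds CD36 and CD47 and can release TGF-beta from its latent complex.

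Total counts ranged over 11444513 to 12896040 per knockdown library and over 18858976 to 27985649 per overexpression library. PURPL averaged 15.7 ± 1.94 CPM with sgRNA-PURPL#1 and 19.5 ± 1.83 with sgRNA-PURPL#2, against 80.8 ± 12.02 in sgCtrl (SD, n = 3 each; CPM is a gene's counts relative to the TMM-scaled library total). It averaged 173 ± 6.40 CPM in PURPL#1-OE and 123 ± 7.53 in PURPL#2-OE, against 64.4 ± 4.50 in Ctrl. All 10 fibroblast markers had counts in every group. Their summed level was 28527 to 32063 CPM in the overexpressing libraries against 23488 to 23999 in Ctrl. Of the 10, 8 were higher past an adjusted p of 0.05 in PURPL#1-OE and 9 in PURPL#2-OE, and 0 were lower. With the guides (15974 to 16598 CPM) the sum overlapped sgCtrl (15828 to 17072 CPM). There 3 of 10 were higher and 1 lower with sgRNA-PURPL#1, and 3 were higher and 3 lower with sgRNA-PURPL#2. Of all genes tested, 19.5% and 18.9% were higher and 20.1% and 19.6% lower in PURPL#1-OE and PURPL#2-OE. With the 2 guides 11.6% and 11.9% were higher and 12.9% and 12.4% lower. Among markers of other cells, KRT1 had no counts in any group and KRT5, KRT14, CDH5, LYZ, MLANA or TYR had none in several groups. The 6 keratinocyte markers summed to 11.4 to 14.7 CPM with the guides and to 12.3 to 13.7 in sgCtrl. Their sum was 8.37 to 13.6 CPM in the overexpressing libraries against 7.95 to 8.52 in Ctrl. Of those tested, 1 keratinocyte marker was higher with sgRNA-PURPL#2 and 1 in PURPL#1-OE. In addition, 1 endothelial marker was higher with sgRNA-PURPL#1 and 1 was lower in PURPL#1-OE. The summed level of 4 smooth muscle markers was 55.3 to 84.4 CPM with the guides against 106 to 120 in sgCtrl, and 82.2 to 114 in the overexpressing libraries against 60.7 to 77.8 in Ctrl. With each guide the 2 of these that could be tested were lower, whereas 2 were higher and 1 lower in PURPL#1-OE and 1 was higher and 1 lower in PURPL#2-OE. The part of any marker list in the results below was not tested. In bulk RNA fewer cells of a type and less RNA per cell cannot be told apart. Among pairs of libraries of the same group, sgCtrl replicates 1 and 3 lay farthest apart, with a chi-square of 10.9 per gene against 2.499 to 9.03 in the other pairs. The differences of the 9 genes from sgCtrl are therefore given below also without sgCtrl replicate 1. Counts of genes, marker levels and genes of the related lists also rest on that library and are given only with it.

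The genes spanned a wide range of levels, which were compared per kilobase of annotated exon. In Ctrl, THBS1 was highest at 693 ± 9.45 CPM per kb, followed by FN1 at 532 ± 22.6 and SPARC at 497 ± 26.6 (SD, n = 3). The SD ranges of FN1 and SPARC overlapped. THBS2 at 125 ± 6.05, TNC at 111 ± 3.77, POSTN at 44.1 ± 3.46, TGFBI at 23.6 ± 2.88, THBS3 at 4.84 ± 0.243 and TNXB at 0.287 ± 0.0225 CPM per kb followed, each apart from its neighbour. In sgCtrl the order began with THBS1 at 794 ± 24.6, SPARC at 232 ± 13.6, FN1 at 125 ± 12.9, THBS2 at 91.5 ± 5.64 and TNC at 73.8 ± 9.07 CPM per kb. THBS3 at 5.41 ± 0.535 and TGFBI at 5.03 ± 0.563 lay within each other's spread there, as did TNXB at 0.0664 ± 0.0540 and POSTN at 0.0438 ± 0.0371. POSTN was thus sixth in Ctrl and shared the bottom of the order with TNXB in sgCtrl. The tables come from separate experiments normalized separately, so this contrast between controls was not tested. Together the 9 genes took 1.24% to 1.29% of all counts with the guides against 1.14% to 1.23% in sgCtrl, and 2.51% to 2.66% in the overexpressing libraries against 1.98% to 2.13% in Ctrl. The groups did not overlap in either table. These shares weigh the most abundant genes most and do not describe each gene. FN1 averaged 2915 and 2816 CPM with the guides against 2167 in sgCtrl. THBS1 averaged 10892 and 11345 CPM in the overexpressing groups against 6344 in Ctrl, while POSTN and TGFBI were lower there. The lowest sgCtrl share was that of replicate 1, and replicates 2 and 3 held 1.23% and 1.20%.

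**Figure D1:**
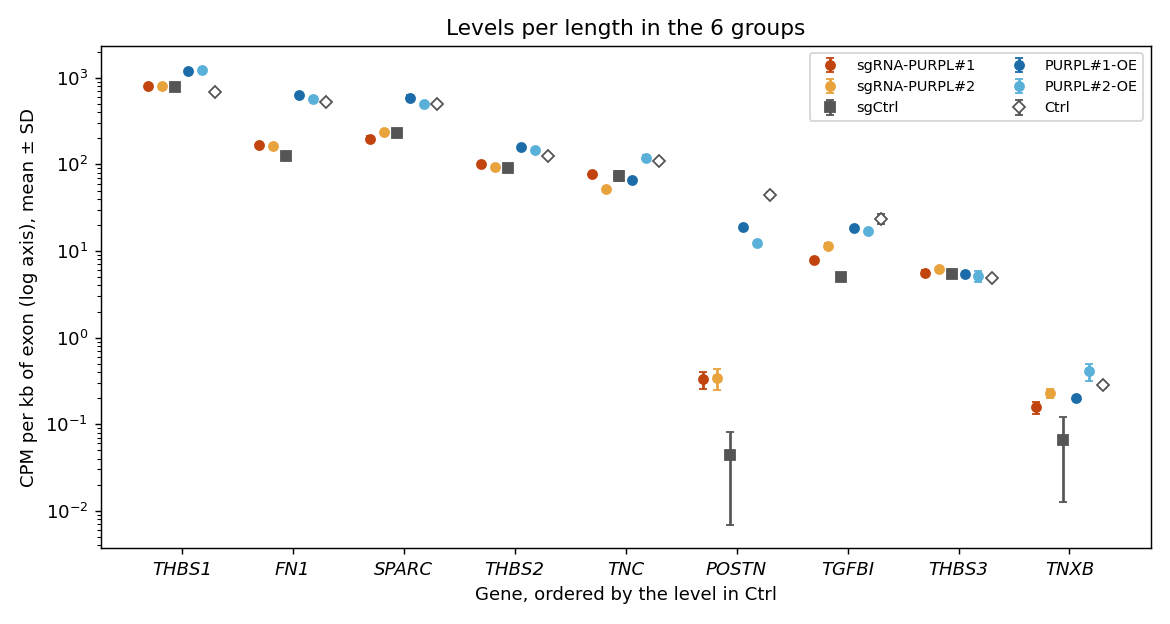
Mean level of each gene per kilobase of exon (CPM per kb, log axis) in the 6 groups, with SD bars over 3 libraries and genes ordered by their level in Ctrl. THBS1 is highest in all 6 groups, and POSTN lies at 0.0438 in sgCtrl but at 44.1 in Ctrl.

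POSTN (periostin, ENSG00000133110.15) supports cell migration and collagen crosslinking in healing skin. It lies on the minus strand of chromosome 13, spanning 37562583 to 37598844 (hg38, as deposited). In the knockdown table it was a rare transcript, at 1.95, 1.35 and 2.09 CPM with sgRNA-PURPL#1 and 2.40, 1.43 and 1.72 CPM with sgRNA-PURPL#2, against 0.173, 0.467 and 0.0783 CPM in sgCtrl. Those levels rest on 66 and 68 counts in all with the guides against 9 counts in sgCtrl, and every guide library lay above every sgCtrl library. The log2 difference from sgCtrl was 2.83 ± 0.470 (SE) with sgRNA-PURPL#1 and 2.88 ± 0.468 with sgRNA-PURPL#2. POSTN passed the filter on low counts only through the guide groups, so a difference was bound to appear among genes kept in this way. The values became 3.75 and 3.80 without sgCtrl replicate 2, which held 6 of the 9 control counts. Without sgCtrl replicate 1 they were 2.66 and 2.71.

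With overexpression the difference had the other sign and rested on far more reads. POSTN measured 105, 98.4 and 110.3 CPM in PURPL#1-OE and 65.3, 69.4 and 66.9 CPM in PURPL#2-OE, against 247.6, 219.8 and 255.9 CPM in Ctrl. None of these groups overlapped. POSTN fell in PURPL#1-OE by a log2 value of -1.20 ± 0.0580 (edgeR quasi-likelihood test, Benjamini-Hochberg adjusted p = 8.28e-17) and in PURPL#2-OE by -1.84 ± 0.0601 (adjusted p = 5.48e-21). PURPL#2-OE lay below PURPL#1-OE by -0.64 ± 0.0602 (adjusted p = 4.72e-09), whereas PURPL itself differed between these groups by -0.50 ± 0.0571. The group with less PURPL therefore had the larger fall in POSTN.

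TGFBI (ENSG00000120708.17), an integrin- and collagen-binding protein named for its induction by TGF-beta, lies on the plus strand of chromosome 5 at 136028988 to 136063818. It measured 62.9, 63.8 and 59.01 CPM with sgRNA-PURPL#1 and 95.5, 90.2 and 84.1 CPM with sgRNA-PURPL#2, against 43.5, 39.5 and 34.8 CPM in sgCtrl. The 3 groups did not overlap, with sgRNA-PURPL#2 highest and sgCtrl lowest. The log2 difference from sgCtrl was 0.66 ± 0.0779 with sgRNA-PURPL#1 and 1.20 ± 0.0762 with sgRNA-PURPL#2, or 0.73 and 1.27 without sgCtrl replicate 1. sgRNA-PURPL#2 exceeded sgRNA-PURPL#1 by 0.54 ± 0.0730.

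In the overexpression table TGFBI measured 145, 145 and 146 CPM in PURPL#1-OE and 132, 139 and 132 CPM in PURPL#2-OE, against 181, 208 and 164 CPM in Ctrl. It fell by -0.34 ± 0.0619 (adjusted p = 5.07e-05) and by -0.46 ± 0.0624 (adjusted p = 8.27e-07) on the log2 scale, and all overexpressing libraries lay below all Ctrl libraries. The overexpressing groups did not pass against each other, at -0.11 with a 95% interval from -0.24 to 0.01 (adjusted p = 0.265).

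**Figure D2:**
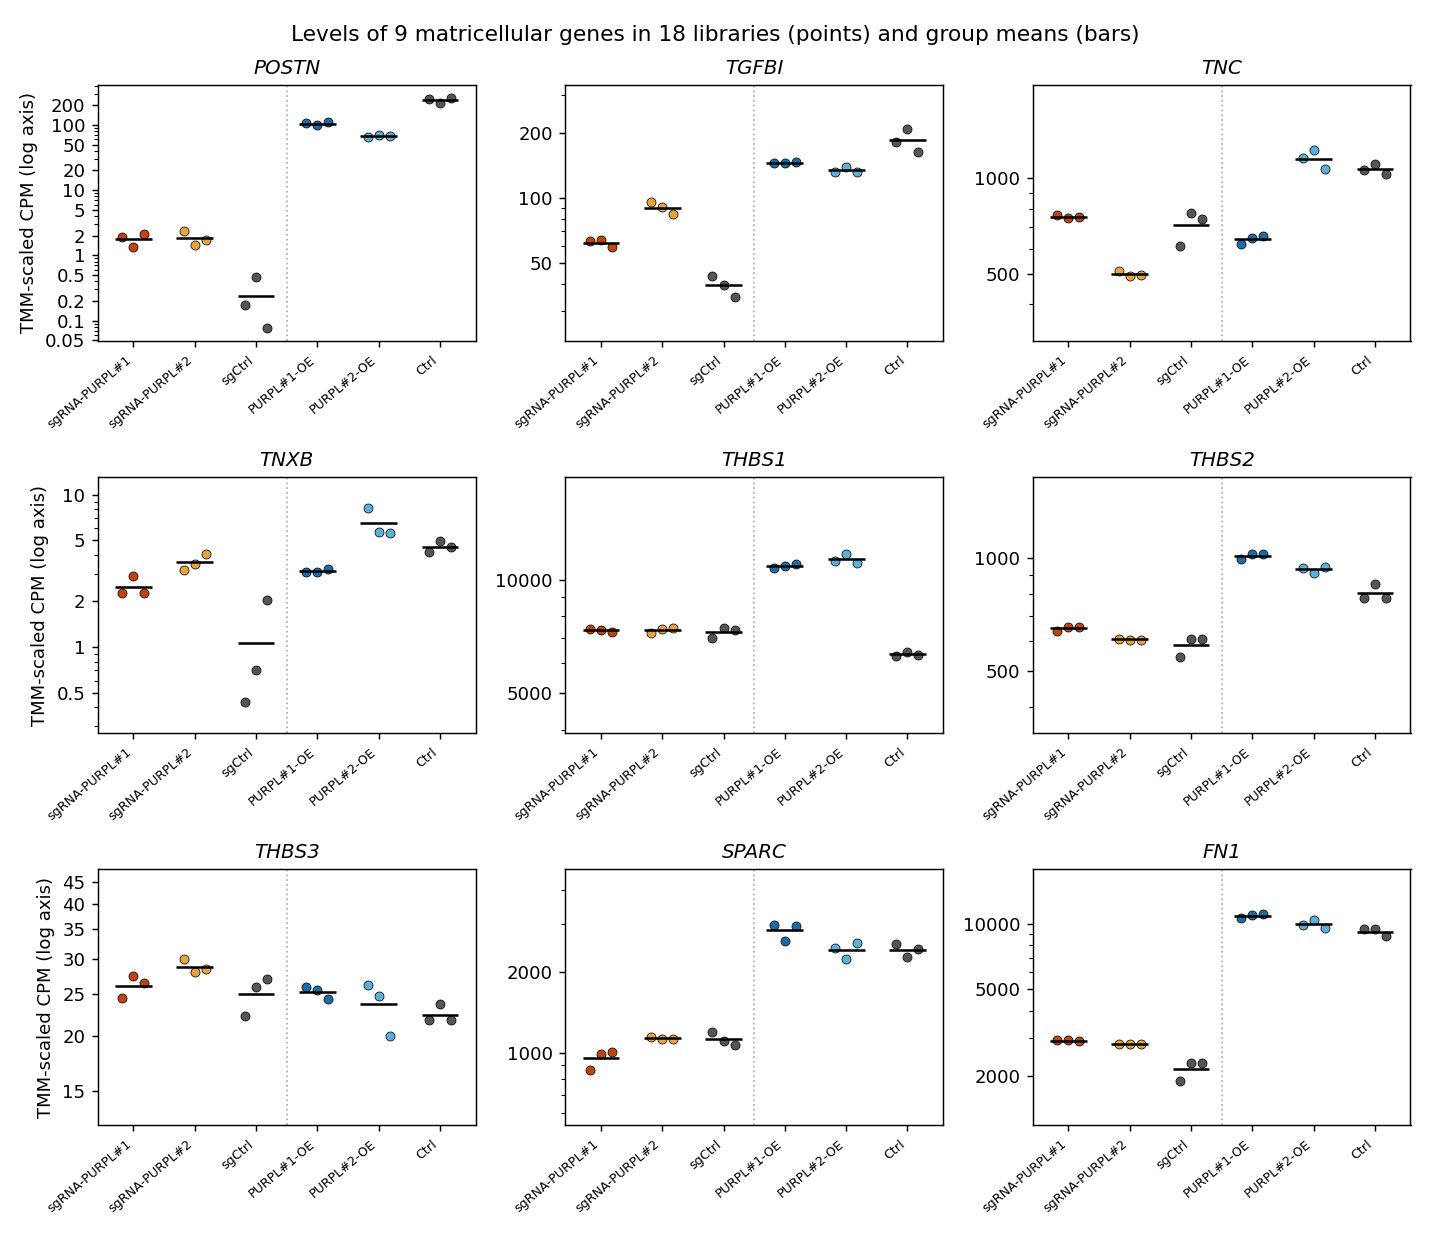
Level of each gene in the 18 libraries (TMM-scaled CPM, log axis) for the 6 groups, with points for libraries, bars for group means and a dotted line between the separately normalized tables. POSTN and TGFBI lie above sgCtrl in every guide library and below Ctrl in every overexpressing library, while THBS1 lies above Ctrl in every overexpressing library and overlaps sgCtrl in the guide libraries.

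The stretches of 250 bases before the RefSeq start (GRCh38.p14) are shown for these 2 genes, which differed from control in opposite directions in the 2 experiments, and for THBS1, which rose with overexpression. Capitals mark matches on either strand to 4 motifs. The element bound by SMAD proteins was searched as CAGAC. The element bound by the AP-1 family was searched as TGANTCA. The element bound by TEAD proteins was searched as GGAATG, and the TATA box as TATAAA. The window of POSTN is chr13:37598769-37599018 on the minus strand, that of TGFBI is chr5:136028738-136028987 on the plus strand and that of THBS1 is chr15:39580829-39581078 on the plus strand.
POSTN: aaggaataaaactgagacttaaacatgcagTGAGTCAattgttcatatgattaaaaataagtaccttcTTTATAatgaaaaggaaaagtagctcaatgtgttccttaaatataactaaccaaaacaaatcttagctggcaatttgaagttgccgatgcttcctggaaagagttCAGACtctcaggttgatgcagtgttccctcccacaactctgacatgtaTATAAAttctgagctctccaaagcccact
TGFBI: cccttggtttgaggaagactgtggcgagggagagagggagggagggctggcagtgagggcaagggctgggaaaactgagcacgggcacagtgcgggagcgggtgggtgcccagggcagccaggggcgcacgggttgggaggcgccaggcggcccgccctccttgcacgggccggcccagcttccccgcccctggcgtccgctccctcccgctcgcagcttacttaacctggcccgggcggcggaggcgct
THBS1: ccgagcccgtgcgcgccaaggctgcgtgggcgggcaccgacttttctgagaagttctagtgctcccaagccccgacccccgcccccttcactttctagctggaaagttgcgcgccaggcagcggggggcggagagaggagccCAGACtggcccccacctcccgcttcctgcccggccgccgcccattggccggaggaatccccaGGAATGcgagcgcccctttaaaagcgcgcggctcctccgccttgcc

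Read 5′ to 3′, the POSTN window held TATAAA 29 bases before the start, CAGAC at 77, a reverse-strand TATAAA match at 182 and TGANTCA at 220 bases. The deposited POSTN span ends at 37598844, so the bases nearest the RefSeq start, with the TATAAA at 29, lie inside the gene as counted. The TGFBI window held no match to any of the 4 motifs. THBS1 held GGAATG at 46 and CAGAC at 108 bases before its start. Of 35116 promoter windows of the same length, 38% held CAGAC, 6.57% TGANTCA, 11.9% GGAATG and 10.7% TATAAA. POSTN was the only one of the 9 genes whose windows, 11 in all, held a TGANTCA match. These are matches of letters in a window, and binding was not measured.

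Among the tenascins, TNC (ENSG00000041982.16, minus strand of chromosome 9 at 115019575 to 115118257), a hexameric protein that loosens cell adhesion in wounds, separated the arms within each experiment. It measured 767, 746 and 754 CPM with sgRNA-PURPL#1 and 509.7, 491 and 494 CPM with sgRNA-PURPL#2, against 613, 779.5 and 742 CPM in sgCtrl. The sgRNA-PURPL#2 libraries lay below all others, while sgRNA-PURPL#1 overlapped sgCtrl. The log2 difference from sgCtrl was 0.09 ± 0.0664 with sgRNA-PURPL#1 and -0.51 ± 0.0668 with sgRNA-PURPL#2, or -0.02 and -0.61 without sgCtrl replicate 1. sgRNA-PURPL#2 differed from sgRNA-PURPL#1 by -0.60 ± 0.0668.

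In the overexpression table TNC measured 622, 648 and 659 CPM in PURPL#1-OE and 1160.01, 1230.5 and 1070.5 CPM in PURPL#2-OE, against 1061, 1105 and 1034 CPM in Ctrl. It fell by -0.73 ± 0.0543 in PURPL#1-OE (adjusted p = 2.32e-12), whose libraries lay below all others. In PURPL#2-OE the difference of 0.11, with a 95% interval from 0.00279 to 0.22, did not pass after adjustment (adjusted p = 0.0994), although it did without PURPL#2-OE replicate 3 (0.17, adjusted p = 0.0189). PURPL#2-OE lay above PURPL#1-OE by 0.84 ± 0.0544 (adjusted p = 2.21e-12), among the 9 genes a difference exceeded by that of TNXB alone.

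TNXB (ENSG00000168477.19, minus strand of chromosome 6 at 32041153 to 32115334) encodes tenascin-X, which spaces collagen fibrils and whose loss causes a form of Ehlers-Danlos syndrome. Part of the gene has a near-identical copy, the pseudogene TNXA, and 23.1% of its span is shared with ENSG00000284829 on the same strand, so its counts are uncertain. TNXA was listed with 0 counts over the knockdown libraries and 5 over the overexpression libraries. ENSG00000284829 was listed with 0 counts over both sets of libraries. ATF6B, which shares 71 bases with TNXB on the same strand, had 2690 counts over the knockdown libraries and 4724 over the overexpression libraries. TNXB measured 2.26, 2.93 and 2.27 CPM with sgRNA-PURPL#1 and 3.22, 3.53 and 4.07 CPM with sgRNA-PURPL#2, against 0.434, 0.7004 and 2.04 CPM in sgCtrl. All guide libraries lay above sgCtrl, but sgCtrl replicate 3 came close to the lowest of them.

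The log2 difference of TNXB from sgCtrl was 1.21 ± 0.346 with sgRNA-PURPL#1 and 1.74 ± 0.325 with sgRNA-PURPL#2. It passed the filter on low counts only through the guide groups, as POSTN did. Without sgCtrl replicate 3 the values were 2.099 and 2.63, and without sgCtrl replicate 1 they were 0.85 and 1.39. sgRNA-PURPL#2 lay above sgRNA-PURPL#1 by 0.54 ± 0.278.

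With overexpression, TNXB measured 3.11, 3.10 and 3.24 CPM in PURPL#1-OE and 8.15, 5.65 and 5.61 CPM in PURPL#2-OE, against 4.21, 4.93 and 4.54 CPM in Ctrl. It fell by -0.53 ± 0.165 in PURPL#1-OE (adjusted p = 0.0106) and rose by 0.49 ± 0.154 in PURPL#2-OE (adjusted p = 0.0113). The call in PURPL#1-OE was lost without Ctrl replicate 2 (-0.47, adjusted p = 0.0506). The call in PURPL#2-OE was lost without its unnumbered library a, the highest of the group (0.30, adjusted p = 0.142), and without Ctrl replicate 1 (0.43, adjusted p = 0.0583). The overexpressing groups differed from each other by 1.02 ± 0.160 (adjusted p = 2.92e-05), a call kept whichever of the 9 libraries was left out. Both tenascins were thus lower in PURPL#1-OE than in PURPL#2-OE.

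THBS1 (thrombospondin 1, ENSG00000137801.11, plus strand of chromosome 15 at 39581079 to 39599466) was the fifth most abundant gene by CPM, not corrected for length, in each group of the knockdown table. It measured 7417, 7366 and 7258 CPM with sgRNA-PURPL#1 and 7219.7, 7383 and 7435 CPM with sgRNA-PURPL#2, against 7015, 7443 and 7352 CPM in sgCtrl. The groups overlapped throughout. The log2 difference from sgCtrl was 0.02 with sgRNA-PURPL#1 and 0.01 with sgRNA-PURPL#2 (± 0.0548 for both), and -0.02 and -0.01 without sgCtrl replicate 1.

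With overexpression THBS1 rose in both groups. It measured 10772, 10909.6 and 10994 CPM in PURPL#1-OE and 11219, 11708 and 11108 CPM in PURPL#2-OE, against 6268, 6438 and 6326 CPM in Ctrl, with no overlap. The log2 change was 0.78 ± 0.0514 (a 1.72-fold level, adjusted p = 1.43e-13) and 0.84 ± 0.0515 (1.79-fold, adjusted p = 3.13e-14). The overexpressing groups did not pass against each other, at 0.06 with a 95% interval from -0.05 to 0.16 (adjusted p = 0.524). By CPM its place among all genes was 4 in PURPL#1-OE and 3 in PURPL#2-OE, against 8 in Ctrl.

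THBS2 (ENSG00000186340.17, minus strand of chromosome 6 at 169215780 to 169254050), an antiangiogenic relative that also affects collagen fibril assembly, moved less. It measured 638, 652 and 653 CPM with sgRNA-PURPL#1 and 608, 603 and 604 CPM with sgRNA-PURPL#2, against 545, 608 and 606 CPM in sgCtrl. The sgRNA-PURPL#1 libraries lay above sgCtrl and those of sgRNA-PURPL#2 overlapped it. The log2 differences from sgCtrl were 0.14 ± 0.0569 and 0.05 ± 0.0569, and 0.09 and -0.00681 without sgCtrl replicate 1.

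In the overexpression table THBS2 measured 990.1, 1023 and 1026 CPM in PURPL#1-OE and 940.05, 909.6 and 946 CPM in PURPL#2-OE, against 782, 849 and 782 CPM in Ctrl. It rose by 0.33 ± 0.0505 (adjusted p = 3.06e-06) and 0.21 ± 0.0506 (adjusted p = 0.00113), and no overexpressing library overlapped Ctrl. THBS3 (ENSG00000169231.13, minus strand of chromosome 1 at 155195588 to 155209051), a pentameric member of the family best known from cartilage and bone, passed in neither overexpressing group. It measured 20.1 to 26.2 CPM in those 6 libraries against 21.7 to 23.7 CPM in Ctrl. The log2 differences were 0.17, with a 95% interval from -0.00877 to 0.35 (adjusted p = 0.126), in PURPL#1-OE and 0.07, from -0.11 to 0.26 (adjusted p = 0.545), in PURPL#2-OE. In the knockdown table THBS3 lay at 24.4 to 30.0 CPM with the guides against 22.2 to 26.9 CPM in sgCtrl, with log2 differences of 0.06 ± 0.0892 and 0.20 ± 0.0883, and -0.02 and 0.12 without sgCtrl replicate 1.

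SPARC (osteonectin, ENSG00000113140.11, minus strand of chromosome 5 at 151661096 to 151686975) binds collagen and assists its assembly. It measured 866, 995 and 1011 CPM with sgRNA-PURPL#1 and 1149, 1124 and 1131 CPM with sgRNA-PURPL#2, against 1195, 1106 and 1067 CPM in sgCtrl. Only the sgRNA-PURPL#1 libraries lay wholly below sgCtrl. The log2 difference from sgCtrl was -0.23 ± 0.0621 with sgRNA-PURPL#1 and 0.02 ± 0.0621 with sgRNA-PURPL#2, or -0.19 and 0.06 without sgCtrl replicate 1. sgRNA-PURPL#2 lay above sgRNA-PURPL#1 by 0.25 ± 0.0622, and by 0.18 without sgRNA-PURPL#1 replicate 1.

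SPARC measured 2983, 2586 and 2945 CPM in PURPL#1-OE and 2447, 2225 and 2539 CPM in PURPL#2-OE, against 2517, 2263 and 2419.65 CPM in Ctrl. It rose by 0.24 ± 0.0608 in PURPL#1-OE (adjusted p = 0.00197). PURPL#2-OE overlapped Ctrl and did not pass, at 0.00219 with a 95% interval from -0.12 to 0.13 (adjusted p = 0.984). The overexpressing groups differed by -0.24 ± 0.0608 (adjusted p = 0.00779), and that call was lost without PURPL#1-OE unnumbered library a or c or without PURPL#2-OE unnumbered library b (adjusted p = 0.0765, 0.0664 and 0.0727).

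FN1 (fibronectin, ENSG00000115414.21, minus strand of chromosome 2 at 215360440 to 215436073) forms the provisional matrix on which fibroblasts migrate. It measured 2924, 2919 and 2902 CPM with sgRNA-PURPL#1 and 2821, 2815 and 2813 CPM with sgRNA-PURPL#2, against 1908, 2301 and 2292 CPM in sgCtrl. All guide libraries lay above sgCtrl, whose replicate 1 was lowest. The log2 differences from sgCtrl were 0.43 ± 0.0625 and 0.38 ± 0.0625, and 0.34 and 0.29 without sgCtrl replicate 1.

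With overexpression FN1 measured 10669, 10939.8 and 11101 CPM in PURPL#1-OE and 9847, 10407 and 9603 CPM in PURPL#2-OE, against 9449, 9414 and 8756 CPM in Ctrl. It rose by 0.24 ± 0.0538 in PURPL#1-OE (adjusted p = 4.93e-04). In PURPL#2-OE the libraries lay above Ctrl, but the difference of 0.11, with a 95% interval from 0.00239 to 0.22, did not pass after adjustment (adjusted p = 0.101). FN1 was therefore higher than its control group in all 12 treated libraries, unlike POSTN and TGFBI.

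Counted over the 9 genes, 4 lay above sgCtrl past an adjusted p of 0.05 with each guide (POSTN, TGFBI, TNXB and FN1), where 11.6% and 11.9% of all genes tested did. In either direction 5 of the 9 passed with each guide, beside 24.5% of all genes with sgRNA-PURPL#1 and 24.4% with sgRNA-PURPL#2. Only SPARC with sgRNA-PURPL#1 and TNC with sgRNA-PURPL#2 lay below, where 12.9% and 12.4% of all genes did. Because the genes were chosen with this contrast known, nothing is read from these counts. Groups did not overlap for 5 genes above and 1 below sgCtrl with each guide, beside 18.3% above and 18.6% below among all genes with sgRNA-PURPL#1 and 17.8% and 18.1% with sgRNA-PURPL#2. The median log2 difference of the 9 genes was 0.14 and 0.20, and that of all genes tested was 0.00374 and -0.00141. POSTN and TNXB, which passed the filter on low counts only through the guide groups, are among the genes above. Nothing is read from the overlap counts and medians either.

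In PURPL#1-OE, 4 genes rose (THBS1, THBS2, SPARC and FN1) and 4 fell (POSTN, TGFBI, TNC and TNXB), where 19.5% of all genes tested rose and 20.1% fell. In PURPL#2-OE, 3 rose (TNXB, THBS1 and THBS2) and 2 fell (POSTN and TGFBI), beside 18.9% and 19.6% of all genes. In either direction that made 8 of 9 in PURPL#1-OE, beside 39.6% of all genes, and 5 of 9 in PURPL#2-OE, beside 38.5%. Groups did not overlap for 5 genes above and 4 below Ctrl in PURPL#1-OE, beside 25.2% and 24.8% of all genes, and for 4 above and 2 below in PURPL#2-OE, beside 23% and 23.3%. The medians over the 9 genes were 0.17 and 0.11, against 0.00763 and 0.00689 over all genes tested. Both overexpressing groups share the Ctrl libraries, as both guides share sgCtrl. Between the guides 3 of the 9 genes passed (TGFBI, TNC and SPARC), where 9.25% of all genes did, 5.51% higher and 3.74% lower with sgRNA-PURPL#2. Nothing is read from that count either, because both guide effects were known. Between the overexpressing groups 4 differed (POSTN, TNC, TNXB and SPARC), where 12.4% of all genes did, 6.18% higher and 6.19% lower in PURPL#2-OE. Earlier results of these data were known when the genes were chosen, so nothing is read from the overexpression counts, overlaps and medians.

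**Figure D3:**
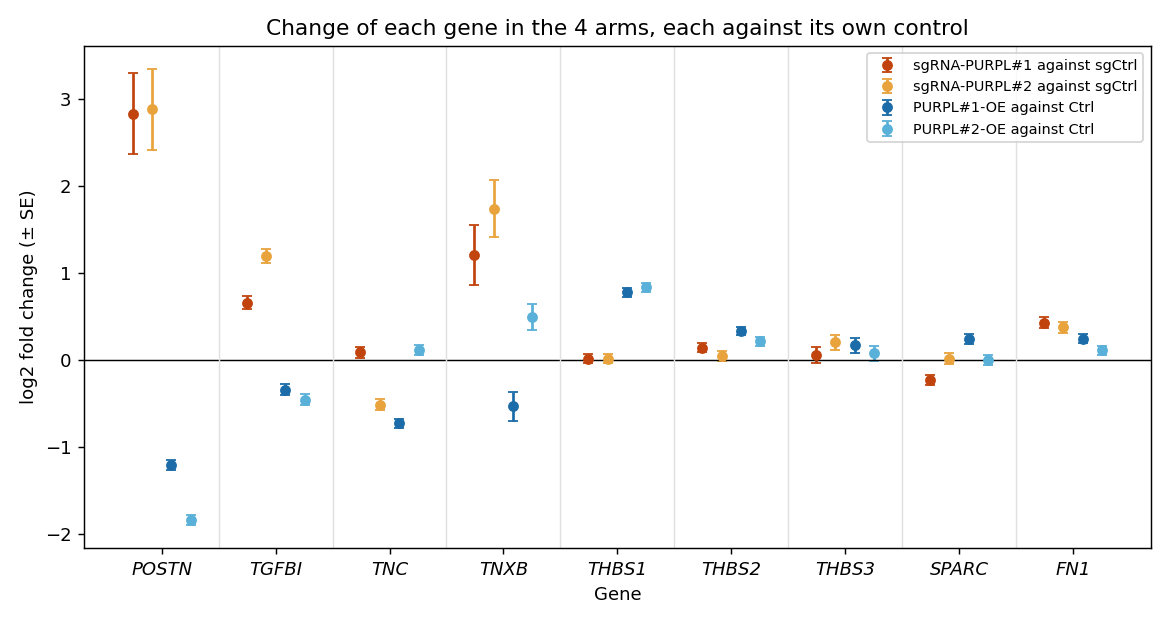
Log2 difference of each gene from its own control (± SE) for the 2 guides against sgCtrl and the 2 overexpressing groups against Ctrl. POSTN and TGFBI lie above 0 with both guides and below 0 with both overexpressing groups. TNC lies at -0.51 with sgRNA-PURPL#2 and at -0.73 in PURPL#1-OE, against 0.09 with sgRNA-PURPL#1 and 0.11 in PURPL#2-OE.

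The 2 experiments were set against each other in a fit of all 18 libraries, as the mean effect of both guides minus the mean effect of both overexpressing groups, each against its own control. The guide effects are part of this difference, so it is given without a test. POSTN had the largest difference of the 9 genes, 4.40 ± 0.339 on the log2 scale, with a mean of 2.86 for the guides and of -1.52 for the overexpressing groups. TNXB had 1.499 ± 0.323, with means of 1.47 and -0.02, and TGFBI had 1.33 ± 0.0909, with means of 0.93 and -0.40. The POSTN difference was 5.33 without sgCtrl replicate 2 and the TNXB difference 2.39 without sgCtrl replicate 3. THBS1 had a difference of -0.79 ± 0.0680, with effects of 0.02 and 0.01 for the guides and of 0.78 and 0.84 for the overexpressing groups. Past an adjusted p of 0.05 lay 4 genes with a higher and 3 with a lower guide effect, where 18% and 15.6% of all genes tested did, 33.6% in all, and nothing is read from these counts. The other differences were smaller, at 0.23 ± 0.0762 for FN1, -0.23 ± 0.0800 for SPARC, -0.17 ± 0.0682 for THBS2, 0.10 ± 0.0791 for TNC and 0.01 ± 0.109 for THBS3. Without sgCtrl replicate 1, the differences were 4.23 for POSTN, 1.15 for TNXB, 1.41 for TGFBI and -0.82 for THBS1. In that fit FN1 had 0.14, SPARC -0.18, THBS2 -0.23, TNC -6.2e-05 and THBS3 -0.07.

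**Figure D4:**
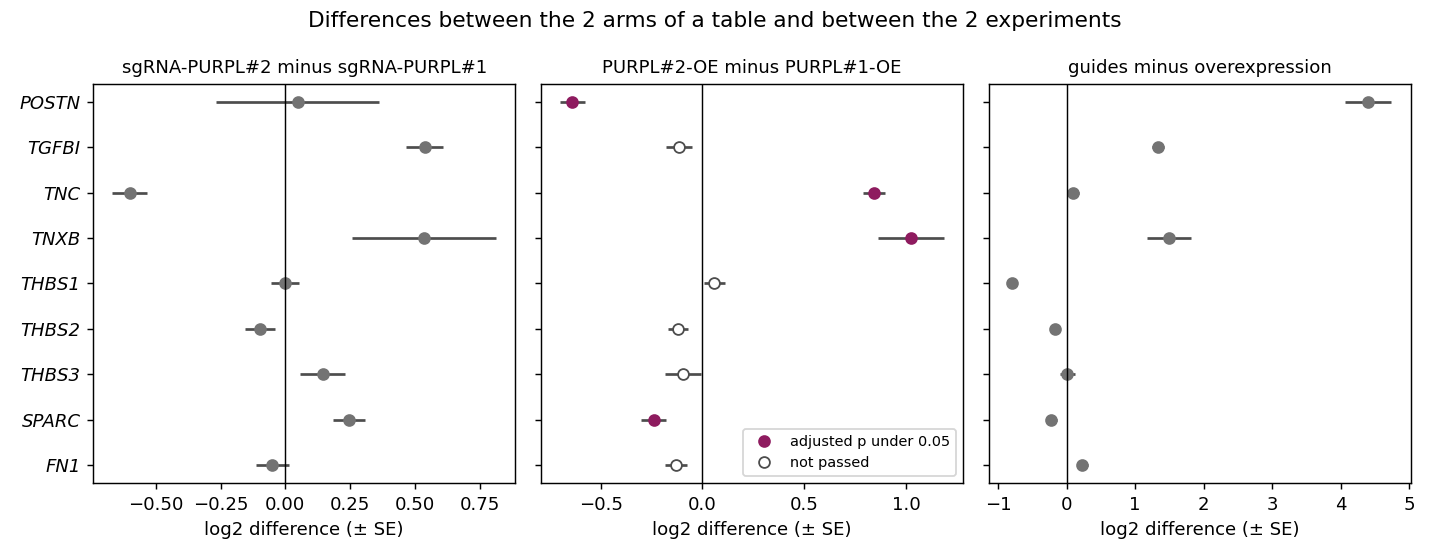
Log2 differences (± SE) between the arms of each experiment (left and middle) and between the mean guide effect and the mean overexpression effect (right). In the middle panel, the only one with a test, filled points lie past an adjusted p of 0.05. TNC lies below 0 between the guides and above 0 between the overexpressing groups, and POSTN has the largest difference between experiments at 4.40.

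The genes whose pattern lay nearest to POSTN, TGFBI and TNXB were looked up among 13638 genes, by the root mean square difference in log2 CPM relative to the mean of the own control, over the 18 libraries. These were the 3 genes of the set with a log2 difference of at least 1 in an arm. Among the 3 nearest to POSTN were EPB41L3, a band 4.1 membrane-skeleton protein (0.382), and NALF1 (0.629). EPB41L3 averaged 2.06 and 2.37 with the guides and -1.56 and -1.32 in the overexpressing groups, where POSTN averaged 2.38, 2.41, -1.20 and -1.84 on this scale. Nearest to TGFBI were IL20RB, a cytokine receptor subunit (0.185), the keratin gene KRT8 (0.202) and ITPR1, a calcium release channel (0.206). TNXB lay nearest to VCAN, a large matrix proteoglycan (0.396), ENSG00000273203 (0.406) and the transcription factor gene PRDM16 (0.413). These distances describe the libraries and carry no test.

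Of 18 other matricellular genes, 10 could be tested in the knockdown table, where 1 rose and 5 fell with sgRNA-PURPL#1 and 3 rose and 4 fell with sgRNA-PURPL#2 (medians -0.15 and 0.09). ABI3BP, a matrix protein that binds the adaptor ABI3, rose by log2 values of 0.66 ± 0.0809 and 0.66 ± 0.0809. CCN1, an integrin ligand, fell by -1.003 ± 0.0583 and -0.45 ± 0.0572, and its relative CCN4 by -1.90 ± 0.328 and -0.93 ± 0.287. In each overexpressing group 4 of 11 rose and 3 fell (medians -0.08 and 0.08). CCN2, a growth factor-binding relative, averaged 812 ± 20.7 CPM in PURPL#1-OE and 500.1 ± 13.5 in PURPL#2-OE, against 273 ± 10.2 in Ctrl. FSTL1 also rose, while the osteopontin gene SPP1 and CCN3 fell in both groups, CCN3 by -1.25 ± 0.0579 and -1.01 ± 0.0577.

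Receptors of these proteins, which pass signals from the matrix into the cell, were listed as integrin subunits, syndecans and others. Of 16 tested, 1 rose and 5 fell with each guide, 8 rose and 4 fell in PURPL#1-OE, and 6 rose and 3 fell in PURPL#2-OE. The shares over all genes tested, 11.6% and 11.9% higher and 12.9% and 12.4% lower with the guides, and 19.5% and 18.9% higher and 20.1% and 19.6% lower with overexpression, apply to this and the other lists. The integrin subunit gene ITGA8 rose in all 4 arms, by 1.89 ± 0.126 and 0.63 ± 0.142 with the guides and by 1.45 ± 0.0673 and 1.38 ± 0.0679 with overexpression. The syndecan gene SDC4 fell in all 4, by -0.86 ± 0.0666 and -0.32 ± 0.0647 with the guides and by -0.20 ± 0.0556 and -0.28 ± 0.0560 with overexpression. With the guides SDC1 also fell. With overexpression ITGAV, a subunit of periostin-binding integrins, rose by 0.72 ± 0.0572 and 0.78 ± 0.0573, and ITGA5, the fibronectin receptor subunit, fell by -0.71 ± 0.0568 and -0.45 ± 0.0566.

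Of 15 genes of TGF-beta signalling and response, 4 rose and 2 fell with sgRNA-PURPL#1, 6 rose and 1 fell with sgRNA-PURPL#2, 7 rose and 4 fell in PURPL#1-OE, and 6 rose and 3 fell in PURPL#2-OE. The feedback inhibitors SMAD7 and SKIL rose with both guides, SKIL to 49.3 ± 1.17 and 63.5 ± 4.31 CPM against 31.05 ± 2.63 in sgCtrl. With overexpression PMEPA1 and the receptor gene TGFBR1 rose, PMEPA1 by 1.13 ± 0.106 and 1.33 ± 0.106. The ligand gene TGFB2 fell by -0.61 ± 0.109 and -1.31 ± 0.118, and the corepressor gene TGIF1 fell as well.

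Binding partners and processing enzymes included 14 genes tested in the knockdown table, of which 5 rose and 5 fell with sgRNA-PURPL#1 and 6 rose and 2 fell with sgRNA-PURPL#2. With overexpression 9 of 15 rose and 3 fell in PURPL#1-OE, and 8 rose and 3 fell in PURPL#2-OE. Decorin (DCN), a proteoglycan of collagen fibrils, rose in all 4 arms, by 0.55 ± 0.0590 and 0.18 ± 0.0590 with the guides and by 0.40 ± 0.0581 and 0.91 ± 0.0584 with overexpression. The membrane metalloprotease gene MMP14 fell in all 4, by -0.19 ± 0.0585 and -0.45 ± 0.0587 with the guides and by -0.38 ± 0.0563 and -0.29 ± 0.0564 with overexpression. COL1A1, the main fibrillar collagen, rose with the guides by 0.23 ± 0.0597 and 0.51 ± 0.0598, and COL6A1 fell. FBLN1, a fibronectin-binding fibulin, rose with overexpression by 0.83 ± 0.0542 and 1.18 ± 0.0545.

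**Figure D5:**
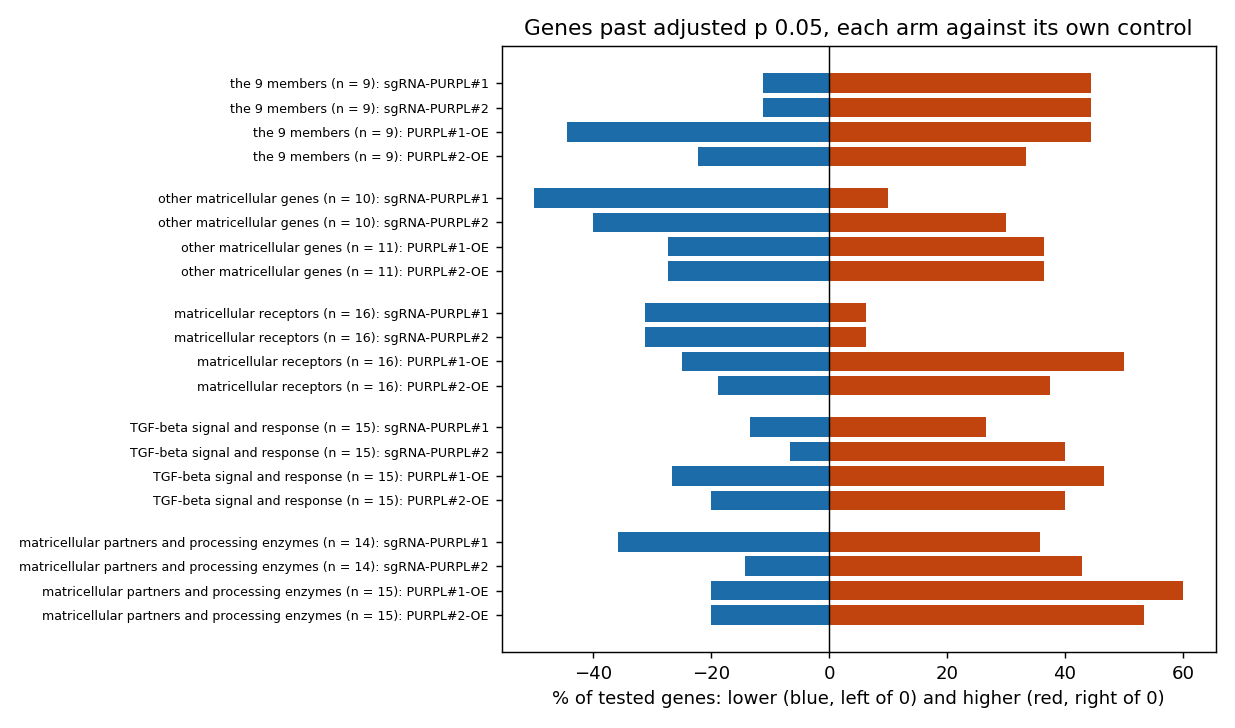
Share of tested genes that passed an adjusted p of 0.05 below (left, blue) and above (right, red) their own control, for the 9 genes of the set and 4 related lists in the 4 arms. Among the receptors 5 of 16 fell and 1 rose with each guide, while 8 rose and 4 fell in PURPL#1-OE and 6 rose and 3 fell in PURPL#2-OE. Over all genes tested, 11.6% to 11.9% were higher and 12.4% to 12.9% lower with the guides, and 18.9% to 19.5% and 19.6% to 20.1% with overexpression.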

How the data were processed

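The authors deposited raw read counts per gene in 2 tables of 9 libraries, each with 61544 genes. Per the labels' protocols, poly(A) RNA extracted with TRIzol was fragmented, reverse-transcribed from random hexamers, ligated to an adaptor as single-stranded cDNA and amplified by PCR. Without molecular identifiers, PCR copies count separately. The molecule label reads genomic DNA, against that protocol, which was followed here. Per the submitters' processing notes, software included HISAT2 2.1.0, featureCounts 2.0.1 (Subread), SAMtools 1.11, cutadapt 3.3, FastQC 0.11.9 and DESeq2 1.34.0 on hg38 and GRCh38.p13. Annotation release and strand setting: not given in the sources used here. Reads from TNC, TNXB, THBS1, THBS2, THBS3 and SPARC therefore cannot be told apart, where they overlap, from those of genes on the opposite strand.

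Samples were grouped by title, and 5 overexpression columns without a replicate number (3 of PURPL#1-OE, 2 of PURPL#2-OE) entered as unnumbered libraries a, b and c of their group. Columns left unused numbered 0. In R 4.3.3 each table was fitted with edgeR 4.0.16: filterByExpr by group (min.count 10, min.total.count 15), TMM scaling and the robust quasi-likelihood test, with 9 libraries sharing 1 estimate of the spread. This left 13923 genes for knockdown and 15267 for overexpression. A joint fit of 18 libraries tested 15166 genes. P-values were Benjamini-Hochberg adjusted over all genes tested, with a threshold of 0.05. For the 9 genes, contrasts that hold guide effects, the joint one included, are given without p. Levels per kb use exon unions of GENCODE v29, a release that may differ from the authors', because the tables' lengths are whole gene spans. Promoter windows come from RefSeq. The fits were checked on simulated data.

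The 9 genes and the related lists were chosen with earlier results of these data known. From each list, in each table, up to 2 genes a direction were named that passed with the same sign in both arms and had the largest mean change. These genes are given without p, because passing was part of the choice. For each of the 9 genes with a log2 difference of at least 1 in an arm, the 3 nearest genes were named. Of the genes these rules name, 2 are not reported here. Alternatives were RLE scaling, DESeq2 1.42.0, other low-count filters, fits of only the groups compared, a replicate block and each library left out.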

Additional observations from a re-analysis of the deposited data

Results flagged for a closer look

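Between the overexpressing groups, 4 of the 9 genes differed by a direct test (PURPL#2-OE minus PURPL#1-OE, log2 scale): POSTN by -0.64, TNC by 0.84, TNXB by 1.02 and SPARC by -0.24.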

How the results depend on the processing

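Over 63 differences of the 9 genes and 981 alternatives, 945 stayed on the same side of the threshold, 32 lost the call and 4 gained it. The sign changed in 34 of the 945, all for 13 differences that had not passed (values -0.17 to 0.02), and in 0 for differences that had passed. Counts of genes and of members called stayed within 1.5 times of the reported ones under every alternative run. With a replicate block, 3250 and 3217 genes were called with sgRNA-PURPL#1 and sgRNA-PURPL#2 against sgCtrl, and 1204 between the guides, and of the 9 genes 5, 5 and 3, as without it. The knockdown numbers share no stated source, and same-numbered libraries did not deviate together (correlations -0.0888 to 0.0386, 0 of 9 over 0.1). No paired analysis was possible for the overexpression table because 5 of its columns carry no replicate number. Besides the losses named with the results, the TNXB difference of sgRNA-PURPL#1 no longer passed without sgRNA-PURPL#1 replicate 2 (1.06) or sgCtrl replicate 2 (0.96), nor that of SPARC without sgRNA-PURPL#1 replicate 1 (-0.17). The joint THBS2 difference no longer passed with no low-count filter (-0.18) or in 14 of 18 fits without 1 library, nor SPARC in 5 and FN1 in 2 of these. THBS2 with sgRNA-PURPL#1 passed by DESeq2 (0.14) or without sgCtrl replicate 3 (0.17), and THBS3 with sgRNA-PURPL#2 passed without sgCtrl replicate 3 (0.26). The cause of these changes was not tested. For contrasts that hold guide effects, the joint one included, calls are given only to show how they depend on the processing. Nothing else is read from them. Depth limits POSTN and TNXB most, at 9 and 40 counts over the sgCtrl libraries.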
